A study of Oryza sativa with 36 samples.

Results

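The transcripts that set regenerated rice plants apart from seed-grown ones were examined by comparing the equal-weight mean of 8 regenerated groups with the group Seedling. The comparison used 18 RNA-seq libraries of the 36 samples in the series, 16 from regenerated plants and 2 from Seedling, and it tested 26374 of the 55986 listed genes. All libraries came from leaves of japonica rice (Oryza sativa), cultivar TNG67, sampled at the tillering stage from plants kept in a greenhouse in natural light. Seedling plants came straight from seed. The regenerated groups are labelled Callus and Callus+AM, then Ag with AgTi and AgBi, the pair AMT+Hb and AMT+Ab, and PB. Each has 2 biological replicates, and their calli had received different combinations of the steps of a transformation procedure. The design text calls them biological replicates without saying how many plants each holds. The sources used here do not spell out the abbreviations, and they do not say whether the plants of a group came from 1 callus or from several. The growth protocol names plants from seed and plants from calli without assigning groups to either, and the 8 groups were taken as the latter from their labels.

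Rice transformation passes through callus, a mass of dividing cells induced on hormone-containing medium, from which shoots are regenerated into whole plants. Plants that have gone through such culture can carry heritable differences known as somaclonal variation, which include changes of DNA sequence, mobilised transposons and altered DNA methylation. The 8 groups share passage through callus, and 1 Seedling group was sequenced beside them. Culture, plant age, the time of sampling and the RNA isolation method, which is not recorded per library, cannot be told apart in this comparison.

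The genes carry LOC_Os identifiers, whose first digits give the chromosome and whose last digits run in order along it. The files do not pair them with names, and 1 of them matched the RefSeq gene table used here. That gene, LOC_Os01g19850 on chromosome 1, has the RefSeq synonyms KCC2 and OsCCC2. It stood at 0.551 and 0.818 CPM (counts scaled to a common library size) in the Seedling libraries and at 0.267 to 2.80 CPM in the regenerated ones, with a median of 0.635 CPM. The sets overlapped, and the gene was not called (log2 fold change 0.06, SE 0.503, edgeR adjusted p = 0.955). Functions are therefore not given for the other genes, and neither the functional lists nor the markers of leaf, floral, root and dividing cells could be applied.

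Sequencing was deeper in Seedling and Callus, at 41582054 to 52643973 counts in their 4 libraries, than in the other 14, at 26609812 to 33222427. Levels are CPM after TMM scaling (trimmed mean of M values), which aligns libraries on the bulk of their genes. The TMM factors of the Seedling libraries were 0.693 and 0.720, below the range of 0.831 to 1.24 in the 16 regenerated libraries. This scaling bears on every count of genes below. With library totals alone, a setting added after these factors were seen, the median log2 fold change of all genes moved from 0.07 to 0.63.

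In the mean of the 8 groups 4500 genes were higher and 5409 lower than in Seedling, 17.1% and 20.5% of the genes tested (edgeR quasi-likelihood test, Benjamini-Hochberg adjusted p below 0.05). The higher genes had a median log2 fold change of 1.88, and 1094 of the 4500 were over 8-fold higher. The lower genes had a median of -1.26, and 347 of the 5409 were over 8-fold lower. Higher genes were mostly weakly expressed in Seedling, with a median of 1.43 CPM there and 7.12 CPM in the regenerated libraries. Lower genes were mostly abundant, with a median of 43.5 CPM in Seedling and 20.7 CPM after regeneration. All genes tested had medians of 7.25 CPM in Seedling and 9.17 CPM in the regenerated libraries. Both sets were chosen by their difference from Seedling, which bears on their levels there. With library totals alone the split was 9308 higher and 2462 lower. The totals rested on both Seedling libraries: leaving out Seedling replicate 1 gave 2215 higher and 3368 lower genes, and leaving out replicate 2 gave 1618 and 3099.

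**Figure D1:**
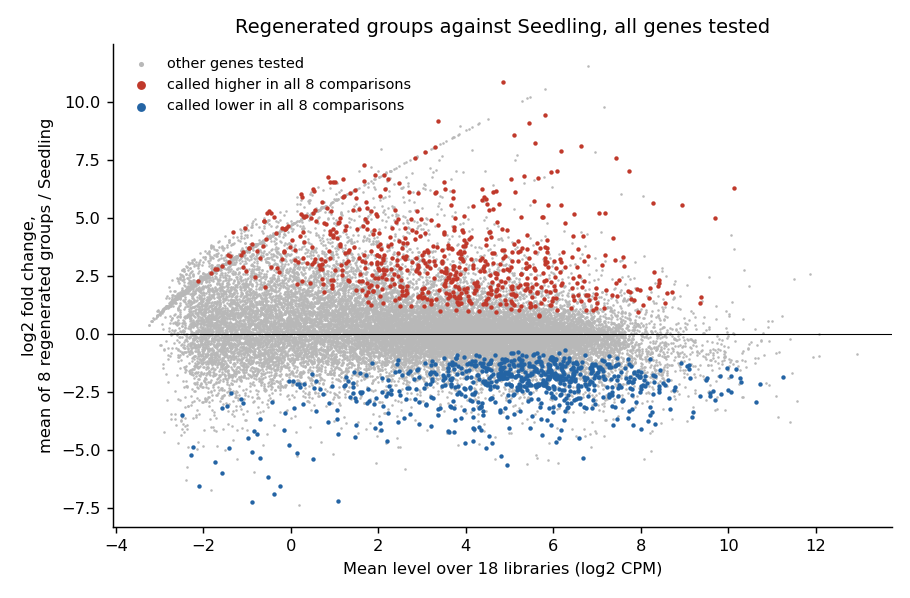
Each point is 1 of the 26374 genes tested, with its mean level over 18 libraries (log2 CPM) against the log2 fold change of the mean of 8 regenerated groups over Seedling. Red and blue points are the 646 higher and 720 lower genes called in all 8 comparisons, and genes with 0 Seedling counts are drawn at their lower bound. Red points reach into low levels, while blue points gather at high levels.

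The direction of change varied with the level of a gene, though the share of higher genes rose and then fell. When the genes were split into 5 equal bins by mean level, 11.7% of the lowest bin were higher and 10.7% lower. In the next bin 25.1% were higher and 13.1% lower, and in the highest bin 12.2% were higher and 35.0% lower. The median log2 fold change ran from 0.58 in the lowest bin to -0.27 in the highest. Transcript length, recovered from the ratio of deposited counts to FPKM, showed a smaller spread. Its medians were 0.08, 0.01, 0.06, 0.07 and 0.12 over 5 bins from the shortest to the longest genes.

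Each regenerated group was then compared with Seedling on its own. Callus had the fewest calls, with 9.3% of the genes tested higher and 10.1% lower, followed by AgBi with 11.7% and 11.4%. The shares were 17.4% and 14.1% in Callus+AM, 15.8% and 15.2% in Ag, and 15.0% and 16.4% in AgTi. They were 15.7% and 14.9% in AMT+Ab, 18.1% and 16.7% in AMT+Hb, and 19.7% and 18.4% in PB, which had the most. Together 646 genes were called higher and 720 lower in every one of the 8 comparisons, 2.45% and 2.73% of the genes tested. The 8 comparisons share the Seedling libraries, so these counts are descriptions. All 646 and all 720 were also called in the mean of the groups. Of the 646 higher genes 486 were over 4-fold higher and 315 over 8-fold, and of the 720 lower genes 368 were over 4-fold lower and 131 over 8-fold. The median log2 fold change was 2.98 for the higher genes, or 2.96 with the 25 genes that had 0 Seedling counts at their lower bound. For the lower genes it was -2.03, and over all genes tested it was 0.07.

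In 643 of the 646 higher genes every regenerated library lay above both Seedling libraries. In all 720 lower genes every regenerated library lay below both. Over all genes tested 9.24% had such a gap upward and 10.6% downward. The sets were chosen by calls against these same Seedling libraries, so their gaps largely follow from the choice and are no separate evidence. No gene of either set was at 0 in all 16 regenerated libraries. With 0.1 CPM added to each level, the 2 Seedling libraries were over 2-fold apart at 85 of the 646 higher and 21 of the 720 lower genes. They were so at 2898 of the 26374 genes tested.

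All 646 higher genes stayed called in all 8 comparisons with library totals alone, where 1413 genes were called in total. Of the 720 lower genes 226 stayed, and no other gene joined them. This setting moved the median log2 fold change of all genes up by 0.565, so it favours higher calls and works against lower ones. The unequal shares kept do not show that 1 set is more stable. Of the genes called in all 8 comparisons, 124 higher and 141 lower ones stayed so with each of the 18 libraries left out in turn. Higher genes numbered 195 when Seedling replicate 2 was left out, 316 when Seedling replicate 1 was, and 389 when Callus replicate 1 was. Lower genes numbered 306 and 266 without Seedling replicates 1 and 2, 388 and 471 without Callus replicates 1 and 2, 410 without AgBi replicate 2, and 461 and 429 without AMT+Ab replicates 1 and 2.

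**Figure D2:**
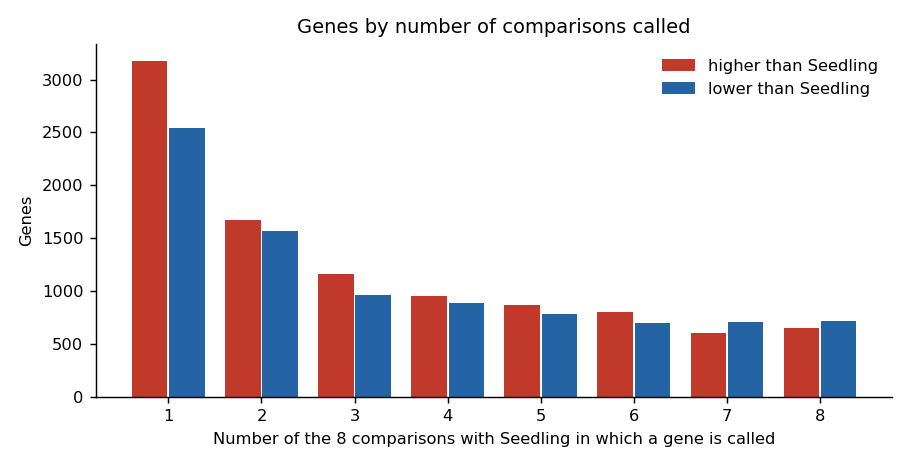
Bars give the number of genes called higher (red) or lower (blue) than Seedling in exactly 1 to 8 of the comparisons, on an axis that starts at 0. The bars for 1 comparison hold 3178 higher and 2538 lower genes, the lowest bars are 601 higher in 7 and 694 lower in 6, and the bars for all 8 hold 646 and 720.

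The number of genes did not keep falling toward the full set. Exactly 1 comparison called 3178 genes higher and 2538 lower, exactly 4 called 951 and 886, exactly 6 called 804 and 694, exactly 7 called 601 and 708, and all 8 called 646 and 720. In 16491 genes no comparison called a higher level and in 17509 none called a lower one. At the edge of the set, LOC_Os10g26070 on chromosome 10 had a largest adjusted p of 0.0499 over the 8 comparisons (edgeR), in AMT+Ab, and LOC_Os09g36600 on chromosome 9 just missed with 0.0501, also in AMT+Ab. Among lower genes LOC_Os01g56550 on chromosome 1 was just inside with 0.0499 in AgBi, and LOC_Os03g21370 on chromosome 3 just outside with 0.0501 in AMT+Hb (edgeR adjusted p).

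Genes called in 7 comparisons mostly lacked the same few groups. Of the 601 higher ones 261 lacked Callus, 119 AMT+Ab, 88 AgBi and 65 PB. Of the 708 lower ones 242 lacked Callus, 222 AgBi and 152 AMT+Ab. Callus+AM was the missing group for 2 higher and 2 lower genes. Among those that lacked Callus, some differed in Callus itself from the mean of the other 7 groups (edgeR adjusted p below 0.05). They were 140 of the 261 higher and 191 of the 242 lower genes, against 14.5% of all genes tested. Seedling is in the fit of this comparison but not in its contrast. In the 222 lower genes that lacked AgBi, the AgBi level differed from the other 7 in 187, against 19.7% of all genes tested. These genes had been chosen for a missing call in that group, so the counts describe them and do not test it. Callus is also the 1 regenerated group with the sequencing depth of Seedling, and the part of depth in these counts was not tested.

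The share of a library's counts that went to these genes shows their weight in the leaf transcriptome. The 720 lower genes took 15.2% and 15.5% of the counts in Seedling replicates 1 and 2 (95% Wilson intervals 15.15 to 15.17 and 15.49 to 15.51, counting error only). In the 16 regenerated libraries they took 5.34% ± 0.840 (SD, n = 16), from 3.83% in Callus+AM replicate 2 to 7.62% in AgBi replicate 1. The 646 higher genes took 0.378% and 0.358% in Seedling and 2.82% ± 0.515 (SD, n = 16) in the regenerated libraries, from 1.93% in AgBi replicate 1 to 3.94% in AMT+Hb replicate 1. The 2 sets of libraries did not overlap in either share. These shares use deposited counts and no scaling factor, and the genes were chosen for the difference.

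**Figure D3:**
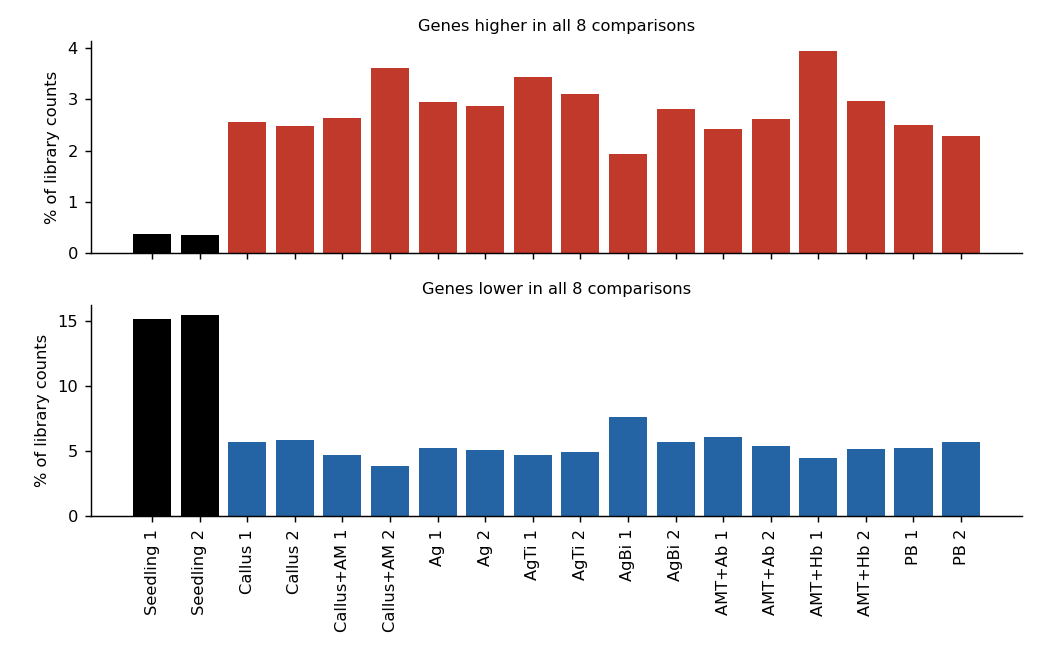
Bars give the percent of each library's counts held by the 646 higher genes (upper panel) and the 720 lower genes (lower panel), with Seedling in black and regenerated libraries in colour. The lower genes hold 15.2% and 15.5% in Seedling and 3.83% to 7.62% elsewhere.

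The size of the shared change differed by group. For the 720 lower genes the median log2 fold change against Seedling was -2.28 in AgTi, -2.27 in Callus+AM, -2.22 in AMT+Hb, -2.07 in Ag, -2.07 in PB, -1.77 in Callus, -1.71 in AMT+Ab and -1.57 in AgBi. For the 646 higher genes, with 0 Seedling counts at their bound, it was 3.16 in AMT+Hb, 3.11 in Callus+AM, 2.97 in AgTi, 2.93 in Ag, 2.76 in AgBi, 2.74 in PB, 2.71 in AMT+Ab and 2.56 in Callus. Median log2 fold changes over all genes tested lay between 0 in AgBi and 0.16 in Callus+AM.

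**Figure D4:**
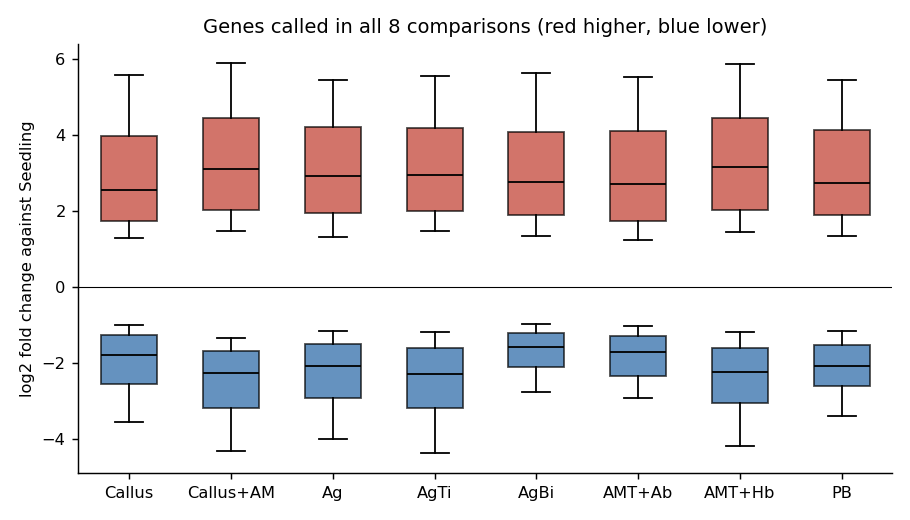
Boxes give the quartiles and median, and whiskers the 10th and 90th percentiles, of the log2 fold change against Seedling over the 646 higher (red) and 720 lower (blue) genes in each regenerated group. Red medians lie between 2.56 and 3.16 and blue medians between -2.28 and -1.57.

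Whether regenerated groups differed from one another at these genes was tested without Seedling in the contrast, by an F test over the 8 groups. It called 270 of the 646 higher genes (41.8%) and 462 of the 720 lower genes (64.2%), against 49.5% of all genes tested (edgeR adjusted p below 0.05). In the bin of genes with the highest mean level, where 350 of the 720 lower genes lie, 58.9% were called. With 0.1 CPM added to each level, a 4-fold band held all 16 regenerated libraries for 240 of the higher and 412 of the lower genes. Among genes called in the mean of the groups it did so for 1329 of 4500 higher and 2573 of 5409 lower ones. The share over all genes tested was not counted, so the band is not read as a trait of the sets. The part of level and replicate spread in these shares was not tested.

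By its median log2 fold change AgBi stood nearest to Seedling at the lower genes, though its 2 libraries differed. In a comparison added after the data were seen, each group was set against the mean of the other 7. Of the 720 lower genes 280 differed in AgBi, 264 of them with a higher level, where 19.7% of all genes tested differed. In AMT+Ab 218 differed and 205 were higher, against 19.5% of all genes, and in Callus 147 differed and 121 were higher, against 14.5%. PB differed at 216, of which 116 were higher, against 30.1% of all genes. Callus+AM differed at 21, all of them lower, against 0.588%, and AgTi at 44, with 43 of them lower, against 2.25%. Ag differed at 55, with 43 lower, against 6.05%, and AMT+Hb at 84, with 72 lower, against 7.09%. Over all genes tested, those that differed were more often higher than lower in every group. The counts were 3154 and 2034 in AgBi, 3385 and 1762 in AMT+Ab, 2354 and 1465 in Callus, and 4509 and 3423 in PB. They were 107 and 48 in Callus+AM, 400 and 193 in AgTi, 1162 and 434 in Ag, and 1224 and 646 in AMT+Hb. AgBi replicate 1 was the regenerated library nearest to Seedling at 252 of the 720 lower genes and at 93 of the 646 higher ones. AgBi replicate 2 was nearest at 38 of the lower genes. That is fewer than Callus replicate 2, at 65, and AMT+Ab replicates 1 and 2, at 62 and 97. Without AgBi replicate 1 the genes called in all 8 comparisons were 664 higher and 798 lower.

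A small class of genes was close to a switch. In 21 genes the lowest of the 16 regenerated libraries was at least 10-fold above the highest Seedling library and at 1 CPM or more, and in 4 genes the lowest Seedling library was at least 10-fold above the highest regenerated one. The class was set after the values were seen, in place of 2 stricter level limits tried first, which held 5 higher and 3 lower genes. All 25 were called in all 8 comparisons, and 19 of the 21 higher and 3 of the 4 lower ones stayed so with each library left out. The class was chosen by its gap from the same Seedling libraries, so these calls largely follow from the choice and are no separate evidence. The 21 higher genes lay on 11 chromosomes, with regenerated medians from 1.97 to 280 CPM. The F test over the regenerated groups called 7 of the 21, against 49.5% of all genes tested. It called 0 of the 4 lower genes, which held 12 to 67 counts over all 16 regenerated libraries, which limits what differences among groups could be detected.

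LOC_Os11g13800 on chromosome 11 had the narrowest span over regenerated libraries of the 21 higher genes. It was at 0.0290 CPM in Seedling replicate 1, which is 1 count, and at 0 in replicate 2. The regenerated libraries ranged from 21.0 CPM in AMT+Ab replicate 2 over a median of 32.0 to 41.3 CPM in Callus replicate 1, a span of 1.97-fold. All 16 libraries were thus high and close together, and both Seedling libraries were near 0. The ratio was 2358-fold (95% exact Poisson interval 423 to 93147), with edgeR adjusted p = 4.57e-08. Against Seedling replicate 2 alone the ratio was 412-fold with its 0 counts set to 3, and the lower 95% limit was 335-fold. Against replicate 1 alone it was 1124-fold (95% interval 202 to 44383). The 8 groups did not differ past the threshold (F test, edgeR adjusted p = 0.393).

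LOC_Os03g02470 on chromosome 3 had 0.0870 and 0.0792 CPM in Seedling, 6 counts in all. In the regenerated libraries it ran from 35.7 CPM in Callus+AM replicate 1 over a median of 57.4 to 117 CPM in AMT+Ab replicate 2. That is a log2 fold change of 9.44 (SE 0.424, adjusted p = 4.57e-08 by edgeR). Group means ran from 37.6 CPM in AgTi to 107.7 CPM in AMT+Ab, and the groups differed (F test, edgeR adjusted p = 0.00973). Every regenerated library was high, with AMT+Ab above the other groups.

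LOC_Os01g57082 on chromosome 1 was the counterpart among lower genes. Its Seedling libraries were at 11.1 and 23.4 CPM, and its regenerated libraries at 0.0242 to 0.301 CPM with a median of 0.124. All 16 regenerated libraries together held 67 counts, against 1266 in Seedling. On the log2 scale the change was -7.22 (SE 0.351, edgeR adjusted p = 6.86e-08), and -6.58 without Seedling replicate 2. The groups did not differ past the threshold (F test, edgeR adjusted p = 0.311).

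The other 3 lower genes of the class were singled out after their values were seen. LOC_Os11g47960 on chromosome 11 was at 6.21 and 6.20 CPM in Seedling and at 0 to 0.321 CPM in regenerated plants. LOC_Os10g38189 on chromosome 10 was at 5.11 and 5.04 CPM in Seedling and at most 0.169 CPM elsewhere. LOC_Os02g47040 on chromosome 2 was at 1.31 and 1.40 CPM against at most 0.113 CPM, and it did not stay called in all 8 comparisons with each library left out. In each of these the Seedling libraries were close together. No regenerated library came near them, as the class required.

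LOC_Os09g32000 on chromosome 9 ranked second by its smallest group change among lower genes with a mean log2 CPM of at least 1. It stood at 101 and 212 CPM in Seedling and at 0.484 to 18.75 CPM in regenerated libraries, with a median of 5.34. The lowest was Callus replicate 2 and the highest AgBi replicate 1, and none overlapped with Seedling, as the naming rule required. The spread lay partly within groups, as the 2 Ag libraries were at 18.67 and 2.06 CPM, and the groups did not differ past the threshold (F test, edgeR adjusted p = 0.121). The log2 fold change stood at -4.72 (SE 0.521, edgeR adjusted p = 2.92e-05), and -4.09 without Seedling replicate 2. Its call in all 8 comparisons ended when any 1 of 10 libraries was left out or no filter on low counts was used, while its call in the mean of the groups held with each library left out (edgeR adjusted p at most 0.00213).

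**Figure D5:**
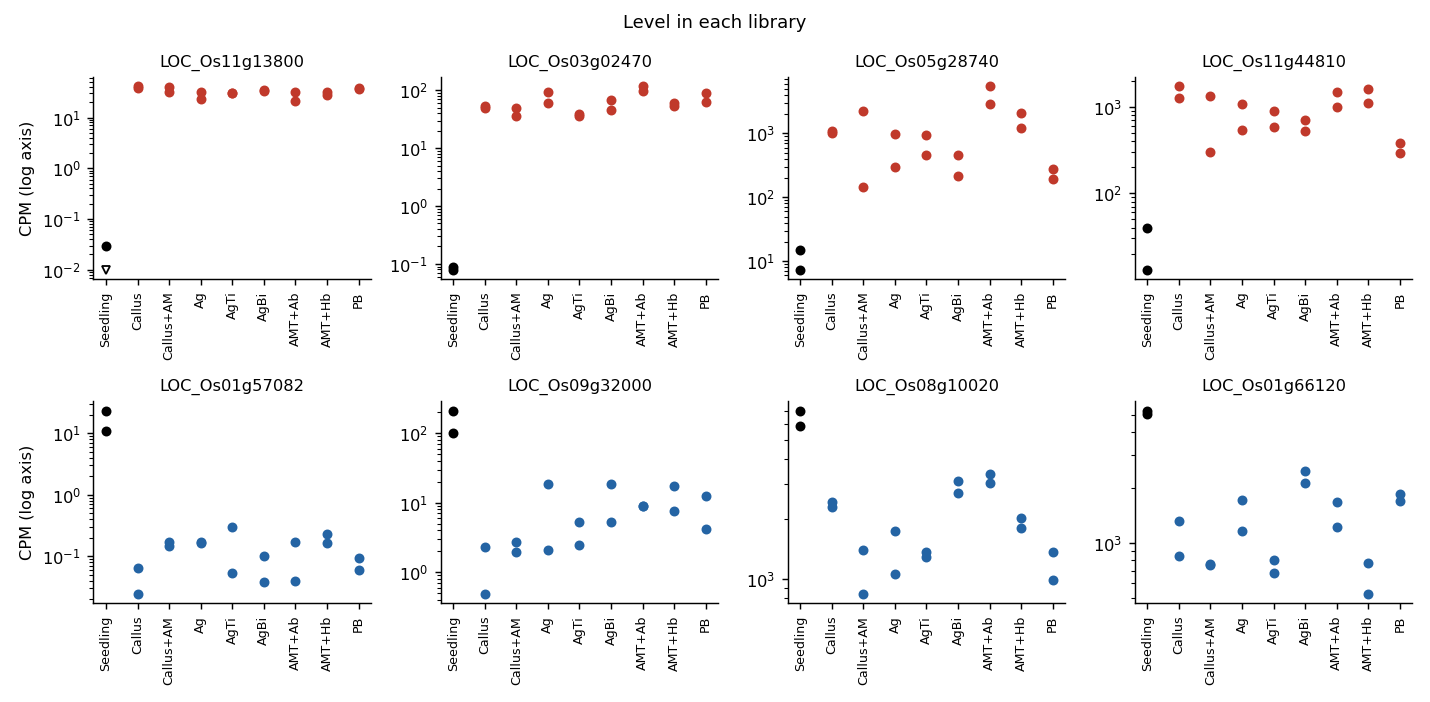
Points are single libraries (CPM, log axis) of the 8 genes chosen by rule, with Seedling in black, higher genes in red and lower genes in blue, and an open triangle at the foot marks 0 counts. The rule admitted only genes in which no regenerated library overlaps with Seedling, so the gap in all 8 panels was set by the choice.

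Among the most abundant genes of the shared set, LOC_Os05g28740 on chromosome 5 was at 15.0 and 7.37 CPM in Seedling. Its regenerated libraries ran from 147 CPM in Callus+AM replicate 1 over a median of 973 to 5450 CPM in AMT+Ab replicate 2, a 37.1-fold span. The log2 fold change stood at 6.28 (SE 1.10, edgeR adjusted p = 0.000917), and leaving out Seedling replicate 1 or 2 gave 6.89 or 5.86. The 2 Callus+AM libraries stood apart, at 147 and 2208 CPM. The groups differed (F test, edgeR adjusted p = 0.0353), with AMT+Ab at 4188 CPM above the other 7 (edgeR adjusted p = 0.00913). The gene was not called in all 8 comparisons without Seedling replicate 2.

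LOC_Os11g44810 on chromosome 11 was at 39.6 and 13.04 CPM in Seedling. It ranged from 292 CPM in PB replicate 2 over a median of 952 to 1736 CPM in Callus replicate 1. All were above Seedling, as the naming rule required. The rise was 5.01 on the log2 scale (SE 0.712, edgeR adjusted p = 0.000200), and leaving out Seedling replicate 1 or 2 gave 6.03 or 4.42. By the F test the groups did not differ past the threshold (edgeR adjusted p = 0.145).

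LOC_Os08g10020 on chromosome 8 was the most abundant lower gene of the set, at 7034 and 5889 CPM in Seedling. Regenerated libraries held 842 to 3390 CPM with a median of 1784, lowest in Callus+AM replicate 1 and highest in AMT+Ab replicate 1. Its change from Seedling was -1.85 on the log2 scale (SE 0.213, edgeR adjusted p = 3.79e-05). The groups differed (F test, edgeR adjusted p = 0.0101), and AgBi and AMT+Ab were above the mean of the others (edgeR adjusted p = 0.0318 and 0.0137). In AMT+Ab the log2 fold change was smallest, at -1.003 (edgeR adjusted p = 0.0401 against Seedling). The call in all 8 comparisons ended when any 1 of 9 libraries was left out. It also ended with library totals alone, with no filter on low counts, with the replicate number as a block and in a test against a 1.5-fold change. The call in the mean of the groups held in each case.

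LOC_Os01g66120 on chromosome 1 was at 5031 and 5266 CPM in Seedling and at 523 to 2456 CPM in regenerated libraries, with a median of 1186. The log2 fold change stood at -2.15 (SE 0.201, edgeR adjusted p = 7.24e-06). The groups differed (F test, edgeR adjusted p = 0.00529). AgBi, at 2285 CPM, and PB, at 1765 CPM, were above the mean of the others (edgeR adjusted p = 0.00498 and 0.0370), and AMT+Hb, at 647 CPM, was below it (edgeR adjusted p = 0.0483). The call in all 8 comparisons ended without Seedling replicate 1, Seedling replicate 2 or AgBi replicate 2, and also with library totals alone, with no filter on low counts and in a test against a 1.5-fold change.

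Scaled by length in the authors' FPKM, the abundant lower genes were also high. LOC_Os08g10020 averaged 9574 FPKM in Seedling and 2904 in regenerated libraries, and LOC_Os01g66120 2649 and 664. LOC_Os05g28740 averaged 15.4 FPKM in Seedling and 1739 after regeneration, and LOC_Os11g44810 averaged 33.3 and 1195. LOC_Os11g13800 averaged 16.2 FPKM after regeneration.

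The shared genes were spread over all 12 chromosomes. Higher genes made up 1.72% of the genes tested on chromosome 2 and 3.12% on chromosome 11, the lowest and highest shares. Lower genes made up 3.63% on chromosome 3 and 3.37% on chromosome 1, but 1.65% on chromosome 11 and 1.24% on chromosome 12. Chromosomes 11 and 12 also had low shares of lower genes in the mean of the groups, 14.8% and 16.5% against 20.5% overall. Lower genes had a median length of 0.918 relative to the median of all genes tested, and higher genes of 1.11.

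Shared genes that were near neighbours were counted along the chromosomes. With neighbours defined, after the data were seen, as locus numbers at most 50 apart, 108 of the 646 higher genes fell into 51 runs of 2 or more and 173 of the 720 lower genes into 80 runs. These are 16.7% and 24.0% of the sets. Of all genes tested 12.5% had a higher gene of the set within the window and 14.4% a lower one, and of the genes called in the mean of the groups 15.8% of the higher and 18.6% of the lower ones did. The longest runs held 4 genes, 1 among the higher and 3 among the lower genes, and they were singled out after their values were seen. The higher run on chromosome 3 reached from LOC_Os03g02380 to LOC_Os03g02470, 4 of 10 genes tested in that span. Its end is the switch-like gene described above, and LOC_Os03g02460 beside it was at 0.319 and 0.211 CPM in Seedling against 2.57 to 12.8 CPM. LOC_Os03g02380 was at 16.6 and 16.8 CPM in Seedling against 40.3 to 138 CPM. Counting without strand or with shared reads between neighbours could not be checked, so the part of read overlap in such runs was not tested.

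The 3 lower runs lay on chromosomes 3, 4 and 6. The run from LOC_Os03g15650 to LOC_Os03g15770 held 4 of 11 genes tested, with LOC_Os03g15720 at 433 and 333.5 CPM in Seedling and 47.9 to 132 CPM in regenerated plants. On chromosome 4 the run from LOC_Os04g39040 to LOC_Os04g39140 held 4 of 9, and LOC_Os04g39080 fell from 136.5 and 193 CPM to between 16.5 and 93.3 CPM. The run from LOC_Os06g50060 to LOC_Os06g50130 on chromosome 6 held 4 of 8, with LOC_Os06g50100 at 160 and 190 CPM in Seedling against 35.5 to 103 CPM. In each of these 3 genes all regenerated libraries were below both Seedling libraries, as in every lower gene of the set.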

How the data were processed

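Leaf RNA of 18 libraries was sequenced, and the 18 bisulfite samples of the series are not analysed here. Per the submitters' processing notes the tools included TopHat, Cuffnorm and Cuffdiff. Their versions, the genome build and the strand setting were not given in the sources used here, and RNA was isolated by 1 of 2 methods, without a record of which library had which. The authors deposited estimated counts per gene, of which 0.707% were not whole, and a table of FPKM, length-scaled and depth-scaled by the authors. Counts were rounded and analysed with edgeR 4.0.16 in R 4.3.3, using filterByExpr by group, TMM scaling, 1 coefficient per group, robust quasi-likelihood fits and 9 residual degrees of freedom. The mean of 8 group coefficients minus Seedling, each group minus Seedling and an F test among the 8 groups were tested. Each group minus the mean of the other 7 was added after the data were seen, as were the class of switch-like genes and the window for neighbouring genes. P-values were adjusted by Benjamini-Hochberg over 26374 genes, with calls below 0.05. The SE comes from the F statistic. A fold against 0 counts is a bound at 3 counts over the group, and bounds and intervals cover counting error only.

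Named genes were called in all 8 comparisons and in the mean, had a mean log2 CPM of at least 1 and had every regenerated library beyond both Seedling libraries. Of the 544 higher and 675 lower genes that qualified, 2 per direction with the largest smallest group change and 2 with the highest mean CPM were named. The members, lists and rules were chosen with earlier results of these data known. The tests were also run on simulated counts with 200 changed genes and equal levels in all regenerated groups. These data hold broader change and groups that differ, so nothing is concluded from that run. Alternatives used DESeq2 1.42.0 and limma 3.58.1 among others. Reads shared between overlapping genes or near-identical copies may have been split in ways that could not be checked.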

Additional observations from a re-analysis of the deposited data

Results flagged for a closer look

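Of the 8 genes chosen by rule, 4 differed among the 8 regenerated groups in the F test, a share like the 49.5% of all genes tested. Seedling is in the fit of that test but not in its contrasts. LOC_Os01g66120 had an edgeR adjusted p of 0.00529, LOC_Os03g02470 of 0.00973, LOC_Os08g10020 of 0.0101 and LOC_Os05g28740 of 0.0353. The change against Seedling at these genes was of 1 direction in all groups and of unequal size. The log2 fold change of LOC_Os01g66120 ran from -2.99 in AMT+Hb to -1.17 in AgBi. That of LOC_Os08g10020 ran from -2.53 in Callus+AM to -1.003 in AMT+Ab. LOC_Os05g28740 ran from 4.42 in PB to 8.55 in AMT+Ab, and LOC_Os03g02470 from 8.76 in AgTi to 10.28 in AMT+Ab. Groups of 2 libraries were too small for a check of single deviating libraries.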

How the results depend on the processing

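The 8 named genes kept their direction and their call in the mean of the groups under every alternative that gave a value. LOC_Os01g57082 was not tested on FPKM, where its mean was under 1. With library totals and no scaling factors, added after the data were seen, 9308 genes were higher and 2462 lower, and 1413 and 226 were called in all 8 comparisons. Higher genes were then 79.1% of calls, against 45.4%. Relative log expression factors gave 4474 and 5426. A test against 1.5-fold left 2735 higher and 3094 lower, and 350 and 266 in all 8. With limma on log2(FPKM + 1), 341 higher genes were called in all 8. Without the PB group 8323 genes differed among the groups left, against 13050 among all 8. With 1 library left out, higher genes numbered 1618 to 4958 and lower genes 3099 to 5791. In all 8 comparisons there were 195 to 711 higher and 266 to 808 lower, and 9052 to 15013 differed among groups. A left-out library leaves 1 in its group, assumed to vary like the others, and relaxes the filter. Thinning to the smallest library gave 611 and 665 genes in all 8. With the replicate number as a block 4130 were higher, 5106 lower, 567 and 610 in all 8, and 11104 differed among groups. Numbers did not pair the samples: over 36 pairs of groups the correlation of same-numbered deviations had a median of -0.03. The other alternatives stayed within 1.5 times the counts reported.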
